A study of Rattus norvegicus with 9 samples.

Results

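The genes followed here, 10 in number, belong to the last steps of autophagosome formation. They include the membrane proteins of the LC3 branch (Map1lc3a, Map1lc3b) and of the GABARAP branch (Gabarap, Gabarapl1, Gabarapl2). The others are the conjugation genes, whose proteins take part in attaching these to membranes (Atg7, Atg12, Atg5, Atg16l1), and the cargo receptor Sqstm1. All 10 were taken by gene symbol and found among the 18733 genes of the deposited tables. RNA came from the hippocampus of male rats, with 3 libraries in each of 3 groups. The taVNS rats were cognitively impaired after occlusion of the middle cerebral artery (MCAO), a surgical stroke model, and then received transcutaneous auricular vagus nerve stimulation, which is electrical stimulation of the outer ear, for 14 days. The PSCI rats, named for post-stroke cognitive impairment, had the same operation and impairment and were kept on regular feeding for 2 weeks. The control rats had regular feeding alone, and no sham operation or sham stimulation is described for any group. Operated rats had entered the study only where their spontaneous alternation rate and cognitive index both fell below 20% of what control rats averaged, as the protocol puts it. The labels give neither the hemisphere nor the strain or age of the rats, and the extraction protocol speaks of mouse tissue although the organism labels and the gene identifiers are those of the rat.

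In autophagy, a growing membrane closes around cytoplasmic material and delivers it to the lysosome. LC3 and GABARAP proteins are small ubiquitin-like proteins that become attached to the lipid phosphatidylethanolamine on that membrane. ATG7 activates them and also activates ATG12, which is joined to ATG5, and the ATG12-ATG5 conjugate with ATG16L1 directs the lipid attachment. SQSTM1, also called p62, binds ubiquitinated cargo and LC3 and is itself degraded with the cargo. In mice, loss of Atg5 or Atg7 in neural cells leads to accumulation of ubiquitinated protein and neurodegeneration. Conjugation and degradation act on the proteins, which were not measured here. The data are levels of messenger RNA.

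Each library came with 2 deposited tables, estimated read counts and RPKM (reads scaled to transcript length and to library size), and these gave different answers for 6 of the 10 genes in the PSCI libraries. Within a library, a gene's counts and its RPKM should differ by a factor set by its length, so counts divided by RPKM should hardly vary between libraries once depth is removed. Over 12587 genes, this ratio in a PSCI library deviated from the gene's median over the 6 taVNS and control libraries by a median of 0.0083 on the log2 scale, and the 99th percentile was 0.239. Only 33 of the 12587 genes deviated by more than 0.25 in the same direction in all 3 PSCI libraries, and 6 of these 33 were Map1lc3a, Gabarap, Gabarapl2, Atg12, Atg5 and Sqstm1. Of the other genes past that limit, 4 belonged to the pathway lists read further on (Becn1, Ulk1, Rb1cc1 and Traf6) and 23 did not, among them, named after their values were seen, the apoptosis genes Casp9 and Bax and the inflammatory signalling genes Nfkb1, Nfkbia, Ikbkb, Myd88 and Nlrp3. Map1lc3b, Gabarapl1, Atg7 and Atg16l1 agreed between the tables within 0.061 in every PSCI library. The files do not show which table of a PSCI library holds the values that came from its reads. For the 6 genes, a call by counts below says what the count table holds, and a call by RPKM what the RPKM table holds. The size of a PSCI difference is given from both tables and is not settled. For Gabarapl2 its direction differs between the tables and is not settled either. For the others of the 6 the direction was the same in both tables. As both describe the same libraries, this is not independent evidence of that direction.

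**Figure D1:**
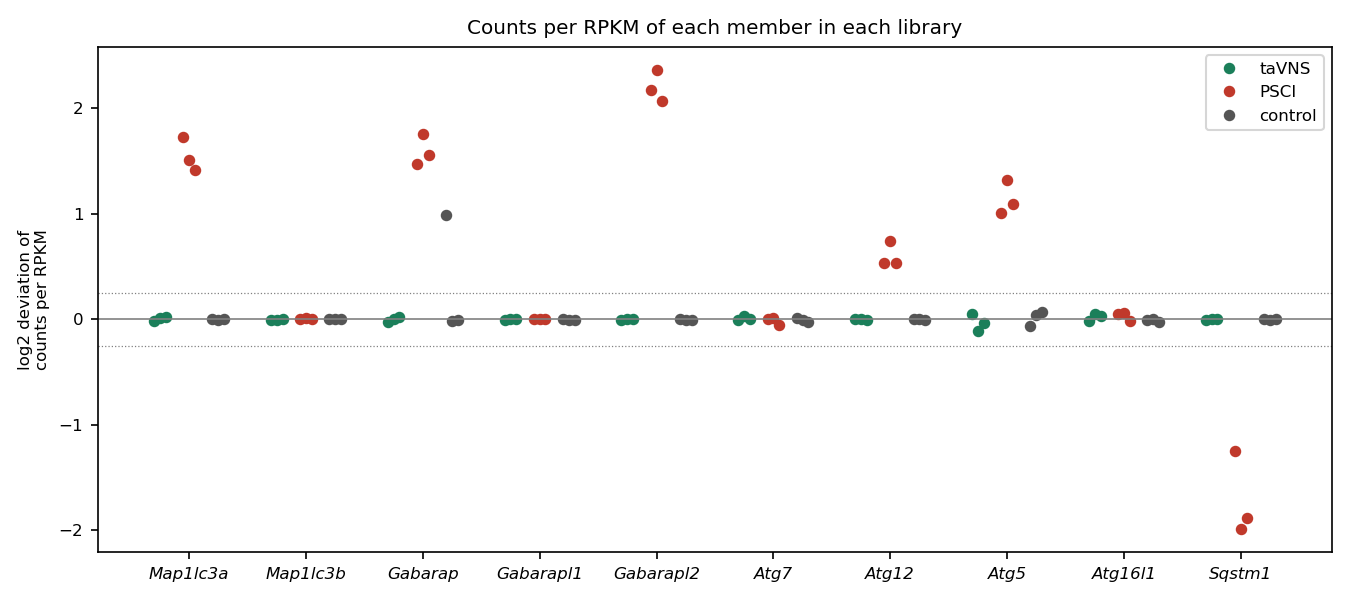
Log2 deviation of counts per RPKM from the gene's median over the 6 taVNS and control libraries (vertical axis) for the 10 genes (horizontal axis), with each point 1 library and dotted lines 0.25 above and below 0. The PSCI points of 5 genes lie above the upper line and those of Sqstm1 below the lower one, while 4 genes lie near 0 in all 9 libraries, and 1 control library of Gabarap lies at 0.99.

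By counts, 6 of the 10 genes differed between PSCI and control (quasi-likelihood test of edgeR, Benjamini-Hochberg adjusted p under 0.05 over all genes), where 9.85% of the 14840 genes tested were called. Of these, 5 (Map1lc3a, Gabarap, Gabarapl2, Atg12 and Atg5) rose, against 7.71% of all genes, and 1 (Sqstm1) fell, against 2.14%. These 6 calls by counts held in all 17 alternative settings. By RPKM, 5 of the 10 were called (limma on log2(RPKM + 0.1)), where 8.41% of 14331 genes were. Map1lc3a, Gabarap, Atg12 and Atg5 rose, against 7.26% of all genes, Sqstm1 fell, against 1.14%, and Gabarapl2 was not called. The median log2 difference of the 10 genes was 0.83 by counts and 0.11 by RPKM, while the median over all genes was 0.00 by counts and 0.04 by RPKM. The median by counts fell in a gap between Map1lc3b (0.06) and Atg12 (1.59), so that none of the 10 genes lay near it. In bulk tissue, a change in the number of cells of a type and a change of RNA per cell cannot be told apart.

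The taVNS libraries were set against PSCI in the same fit, and so this comparison shares the PSCI libraries, with their 2 sets of values, with the one before. By counts, 6 of the 10 genes were called, where 5.75% of all genes were: Sqstm1 rose, against 0.842% of all genes, and Map1lc3a, Gabarap, Gabarapl2, Atg12 and Atg5 fell, against 4.91%. By RPKM, 4 were called, where 4.33% of all genes were: Sqstm1 rose, against 0.544% of all genes, and Map1lc3a, Atg12 and Atg5 fell, against 3.79%. The median log2 difference of the 10 genes was -0.91 by counts and -0.10 by RPKM, against 0.00 and -0.02 over all genes. By counts it again fell in a gap, between Atg12 (-1.68) and Map1lc3b (-0.14).

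**Figure D2:**
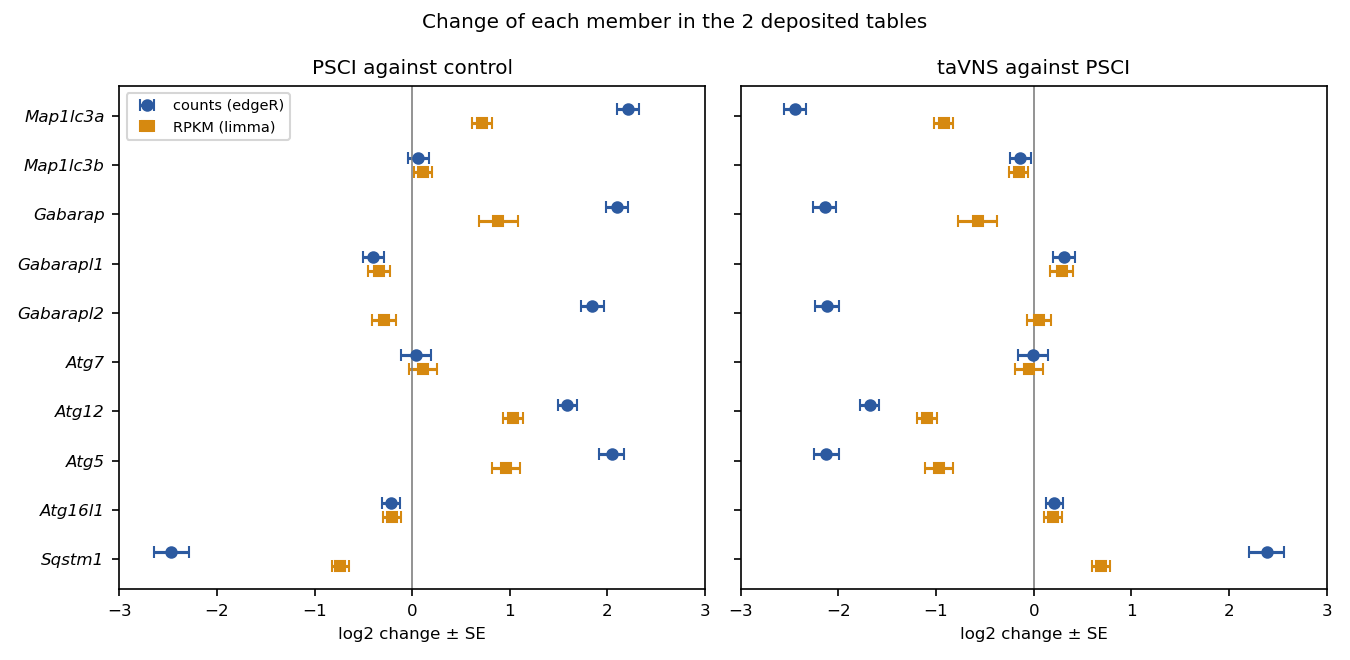
Log2 change with its standard error (horizontal axis) of each gene (vertical axis) in PSCI against control (left) and taVNS against PSCI (right), by counts (circles) and by RPKM (squares). The squares lie nearer to 0 than the circles for 6 genes, 1 of which, Gabarapl2, changes sign in PSCI against control and in taVNS against PSCI, and close to the circles for Map1lc3b, Gabarapl1, Atg7 and Atg16l1.

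Map1lc3a encodes LC3A, a protein of the autophagosome membrane. It had 1447, 1359 and 1395 counts in the taVNS libraries, 8555, 7671 and 7888 in PSCI and 1869, 1492 and 1473 in control. Its RPKM values were 149.6, 131.5 and 137.7 in taVNS, 251.9, 262.8 and 277.6 in PSCI and 180.2, 150.6 and 153.2 in control. All 3 PSCI libraries lay above the other 6 in both tables, but the gap was wider in counts. As CPM, which are counts scaled to library size, the means were 528.9 ± 48.7 in PSCI and 114.3 ± 12.8 in control (SD, n = 3 each), a rise of 2.21 ± 0.11 on the log2 scale (SE, edgeR adjusted p = 1.52e-05). By RPKM, the rise of PSCI over control was 0.71 ± 0.10 (SE, limma adjusted p = 0.00408), which is 1.64-fold where counts gave 4.63-fold. taVNS was below PSCI by counts, with a log2 difference of -2.44 ± 0.11 (edgeR adjusted p = 1.55e-05), and by RPKM, with -0.92 ± 0.10 (limma adjusted p = 0.00245).

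The other LC3 gene, Map1lc3b, whose protein LC3B is the usual marker of autophagosomes, showed no such pattern. It had 3268, 3467 and 2992 counts in taVNS, 3755, 3438 and 4113 in PSCI and 3718, 3267 and 3048 in control. The RPKM values were 161.5, 163.4 and 143.6 in taVNS, 175.9, 159.5 and 185.6 in PSCI and 172.3, 157.8 and 152.3 in control. The 3 groups overlapped in both tables. The log2 difference of PSCI from control was 0.06 ± 0.11 by counts (edgeR adjusted p = 0.782) and 0.11 ± 0.10 by RPKM (limma adjusted p = 0.55). For taVNS against PSCI it was -0.14 ± 0.11 by counts (edgeR adjusted p = 0.522) and -0.15 ± 0.10 by RPKM (limma adjusted p = 0.421). A near-identical gene, Map1lc3b2, held 10 counts over all 9 libraries together, and the counts of Map1lc3b were fractional in 4 libraries.

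Gabarap, the founding gene of its branch, had 1498, 1264 and 1447 counts in taVNS, 6533, 7082 and 6029 in PSCI and 1642, 1283 and 1325 in control. Its RPKM values were 196.2, 154.2 and 179.2 in taVNS, 289.3, 256.8 and 241.5 in PSCI and 100.2, 163.9 and 173.9 in control. PSCI lay above the other groups in both tables, and control replicate 1 had the highest count of its group but the lowest RPKM. The log2 difference of PSCI from control was 2.10 ± 0.12 by counts (edgeR adjusted p = 2.43e-05) and 0.88 ± 0.20 by RPKM (limma adjusted p = 0.0273). The RPKM call was lost without control replicate 2 (limma adjusted p = 0.0511), without PSCI replicate 2 (adjusted p = 0.0538) and without PSCI replicate 3 (adjusted p = 0.0715). Its alternatives ranged from an adjusted p of 0.0289 to 0.0715, and without control replicate 1 the difference was 0.63 (adjusted p = 0.0343). taVNS differed from PSCI by -2.14 ± 0.12 by counts (edgeR adjusted p = 2.24e-05), whereas the RPKM difference of -0.58 ± 0.20 missed the threshold (limma adjusted p = 0.147) except without control replicate 1 (adjusted p = 0.0414).

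Gabarapl2, which encodes the GABARAP-like protein also called GATE-16, was the gene whose 2 tables lay farthest apart. It had 2093, 1885 and 1893 counts in taVNS, 9001, 8698 and 9207 in PSCI and 2738, 2059 and 2144 in control. In RPKM the same libraries had 113.6, 96.5 and 99.6 in taVNS, 102.9, 86.9 and 109.2 in PSCI and 139.0, 109.2 and 117.8 in control. The PSCI counts lay above every other library, while the PSCI RPKM values overlapped both other groups. With control the overlap was marginal, at 109.16 RPKM in PSCI replicate 3 against 109.15 RPKM in control replicate 2. The log2 difference of PSCI from control was 1.85 ± 0.12 by counts (edgeR adjusted p = 5.73e-05) and -0.29 ± 0.12 by RPKM (limma adjusted p = 0.194, unadjusted p = 0.0428). For taVNS against PSCI it was -2.12 ± 0.12 by counts (edgeR adjusted p = 2.34e-05) and 0.05 ± 0.12 by RPKM (limma adjusted p = 0.858). Its counts were fractional in all 9 libraries.

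Gabarapl1 encodes a GABARAP-like protein that is abundant in brain. Its counts were 6007, 5336 and 5950 in taVNS, 4892, 5154 and 4703 in PSCI and 6721, 5159 and 6094 in control, and the RPKM values were 302.7, 253.8 and 291.2 in taVNS, 233.8, 245.0 and 216.0 in PSCI and 316.9, 253.9 and 311.2 in control. After scaling, PSCI lay below both other groups without overlap in both tables. The mean was 322.9 ± 14.1 CPM in PSCI and 425.6 ± 52.8 CPM in control, and the log2 difference of -0.40 ± 0.11 missed the threshold (edgeR adjusted p = 0.0531). It passed without control replicate 2 and with DESeq2 (adjusted p = 0.00509, the lowest over its alternatives, with 0.168 the highest). By RPKM the difference was -0.34 ± 0.12 (limma adjusted p = 0.113), and for taVNS against PSCI it was 0.31 ± 0.11 by counts (edgeR adjusted p = 0.148, but 0.0489 with DESeq2) and 0.28 ± 0.12 by RPKM (limma adjusted p = 0.216).

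**Figure D3:**
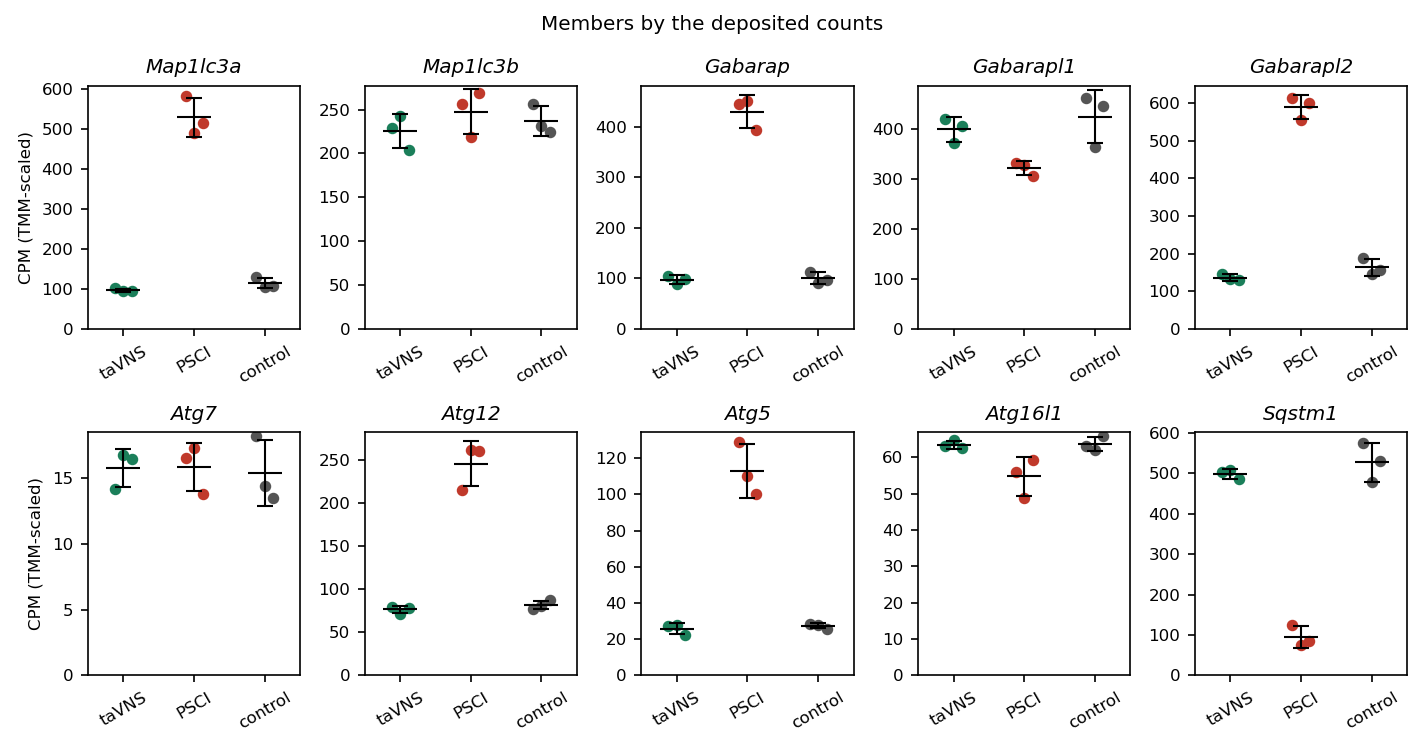
CPM of each gene (vertical axes, from 0) in the taVNS, PSCI and control libraries, with 1 point a library and bars for the mean and SD of 3. PSCI stands above both other groups for Map1lc3a, Gabarap, Gabarapl2, Atg12 and Atg5 and below them for Sqstm1, Gabarapl1 and Atg16l1.

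**Figure D4:**
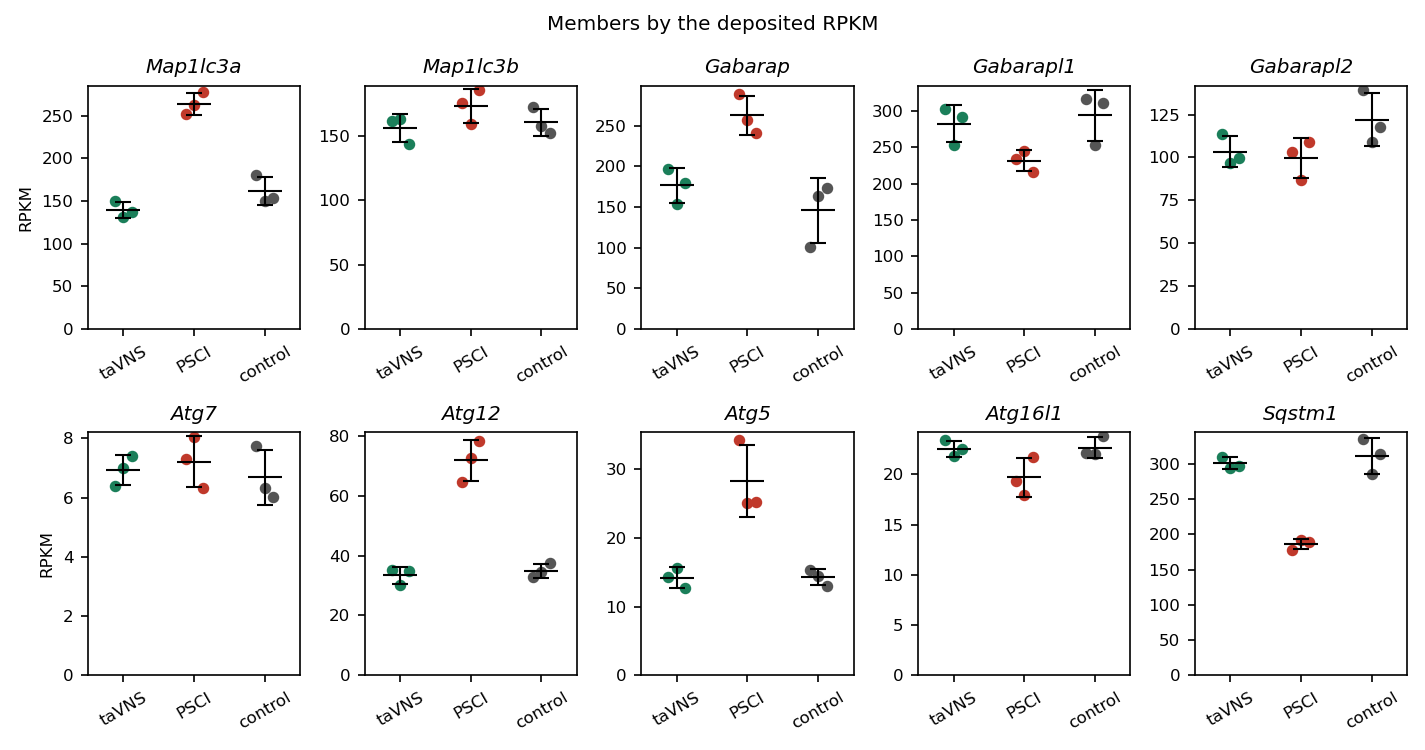
RPKM of each gene in the same libraries, drawn in the same way. PSCI still stands apart for Map1lc3a, Gabarap, Atg12, Atg5 and Sqstm1, by a smaller margin. It also stays below both other groups for Gabarapl1 and Atg16l1. The 3 groups overlap for Gabarapl2, Map1lc3b and Atg7.

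Of the conjugation genes, Atg12 and Atg5, whose products are joined to each other, rose in PSCI in both tables. Atg12 had 1139, 1029 and 1149 counts in taVNS, 3168, 4109 and 3994 in PSCI and 1125, 1135 and 1189 in control, with RPKM values of 35.3, 30.2 and 34.9 in taVNS, 64.4, 72.5 and 78.2 in PSCI and 32.7, 34.4 and 37.5 in control. No PSCI value overlapped either other group in counts or in RPKM. The log2 difference of PSCI from control was 1.59 ± 0.10 by counts (edgeR adjusted p = 5.78e-05) and 1.04 ± 0.10 by RPKM (limma adjusted p = 0.00134), that is 3.01-fold and 2.05-fold. Atg12 was the gene of the 6 whose tables lay nearest to each other. taVNS fell below PSCI by 1.68 on the log2 scale by counts (edgeR adjusted p = 3.84e-05) and by 1.10 by RPKM (limma adjusted p = 0.00142).

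Atg5 had 388, 400 and 329 counts in taVNS, 1889, 1724 and 1531 in PSCI and 410, 396 and 352 in control. Its RPKM values were 14.3, 15.7 and 12.6 in taVNS, 34.2, 25.1 and 25.2 in PSCI and 15.4, 14.4 and 13.0 in control. PSCI again lay above both other groups in both tables, with replicate 1 the highest. The log2 difference of PSCI from control was 2.04 ± 0.12 by counts (edgeR adjusted p = 4.44e-05) and 0.96 ± 0.14 by RPKM (limma adjusted p = 0.00563). For taVNS against PSCI it was -2.12 ± 0.13 by counts (edgeR adjusted p = 3.21e-05) and -0.97 ± 0.14 by RPKM (limma adjusted p = 0.00963).

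Atg7, the activating enzyme, and Atg16l1, which places the ATG12-ATG5 conjugate on the membrane, were not called in either table. Atg7 was the lowest of the 10 genes, with 202, 240 and 241 counts in taVNS, 243, 271 and 211 in PSCI and 264, 204 and 184 in control, where the count of 184 has an exact Poisson 95% interval of 158 to 213 that covers counting error only. The RPKM values of Atg7 were 6.41, 7.02 and 7.42 in taVNS, 7.31, 8.04 and 6.32 in PSCI and 7.75, 6.33 and 6.01 in control. The groups overlapped in both tables, at 15.9 ± 1.85 CPM in PSCI and 15.4 ± 2.49 CPM in control. The log2 difference was 0.04 ± 0.15 by counts (edgeR adjusted p = 0.899) and 0.11 ± 0.14 by RPKM (limma adjusted p = 0.709). Atg16l1 had 899, 925 and 914 counts in taVNS, 822, 767 and 910 in PSCI and 913, 876 and 898 in control. Its RPKM values were 23.36, 21.78 and 22.51 in taVNS, 19.37, 17.95 and 21.73 in PSCI and 22.09, 22.01 and 23.85 in control. Once scaled to depth, the PSCI libraries of Atg16l1 lay below all others, at 54.8 ± 5.37 CPM, against 63.7 ± 2.04 CPM in control. That log2 difference of -0.22 ± 0.09 was not called (edgeR adjusted p = 0.161), nor was -0.20 ± 0.09 by RPKM (limma adjusted p = 0.224). For taVNS against PSCI, the log2 difference by counts was -0.01 ± 0.15 for Atg7 (edgeR adjusted p = 0.987) and 0.21 ± 0.09 for Atg16l1 (edgeR adjusted p = 0.211). By RPKM it was -0.05 ± 0.14 for Atg7 (limma adjusted p = 0.886) and 0.20 ± 0.09 for Atg16l1 (limma adjusted p = 0.277).

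Sqstm1 moved in the other direction from the 5 genes that rose by counts. It had 7192, 7248 and 7097 counts in taVNS, 1837, 1189 and 1304 in PSCI and 8320, 6753 and 7205 in control. In RPKM it had 310.3, 294.0 and 297.4 in taVNS, 178.1, 192.4 and 189.1 in PSCI and 335.2, 285.0 and 313.5 in control. PSCI lay below every other library in both tables, by far more in counts. The mean was 95.4 ± 26.3 CPM in PSCI and 527.3 ± 48.0 CPM in control, a log2 difference of -2.47 ± 0.18 (edgeR adjusted p = 0.000167) that is 5.53-fold lower. The RPKM difference was -0.74 ± 0.09 (limma adjusted p = 0.00283), which is 1.67-fold lower. taVNS lay above PSCI by 2.39 ± 0.18 by counts (edgeR adjusted p = 0.00023) and by 0.69 ± 0.09 by RPKM (limma adjusted p = 0.00582). The spread of the PSCI libraries was also unlike between tables, with a coefficient of variation of 27.5% in CPM and 4.01% in RPKM.

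The gap between the tables was also tested gene by gene on the ratio of counts to RPKM, which compares the tables and not the rats. Its p-value weighs a gap against its spread between libraries, so a missing or lost call does not mean that the tables agreed. In the 3 PSCI libraries the log2 ratio of Sqstm1 deviated by -1.99 to -1.247. That of Atg12 deviated by 0.537 to 0.739 and that of Gabarap by 1.472 to 1.755. In PSCI against control, 15 of 12587 genes, 0.119%, were called (limma, adjusted p under 0.05), and 5 of the 15 were among the 10 genes. The log2 ratio differed by 2.20 for Gabarapl2 (limma adjusted p = 1.91e-05), by 1.55 for Map1lc3a (adjusted p = 0.000214), by 1.12 for Atg5 (adjusted p = 0.00415) and by 0.60 for Atg12 (adjusted p = 0.00757). For Sqstm1 it differed by -1.70 (limma adjusted p = 0.0223). The call of Sqstm1 was lost when any library other than PSCI replicate 1 was left out (limma adjusted p = 0.0555 to 0.130), with the difference between -1.56 and -1.71, and that of Atg12 was lost without control replicate 1 (adjusted p = 0.054) and without control replicate 3 (adjusted p = 0.0549). Gabarap, with a difference of 1.27, was not called (limma adjusted p = 0.302). Its control replicate 1 deviated too, by 0.99, and without that library the difference was 1.61 (adjusted p = 0.00214). In taVNS against PSCI, 12 genes, 0.0953%, were called, and the same 5 genes were among them, of which Atg12 and Sqstm1 were lost when any taVNS library was left out (limma adjusted p = 0.0657 to 0.179). Sqstm1 was also lost there without control replicate 1, 2 or 3 (adjusted p = 0.0658, 0.0782 and 0.0771) and without PSCI replicate 3 (adjusted p = 0.113), and Gabarap was called without control replicate 1 (adjusted p = 0.00115). In taVNS against control 0 genes, 0%, were called, with 484 at an unadjusted p under 0.05.

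The gap can be put in counts by asking which count would match a library's RPKM at the gene's median ratio over the taVNS and control libraries. For Gabarapl2, the deposited PSCI counts exceeded the matching counts by 7002, 7006 and 7005, while the other 6 libraries differed by -7 to 10. These 3 excesses differ by 4 counts, although the deposited counts of the same libraries differ by up to 509. For Map1lc3a the excesses in PSCI were 5976, 4973 and 4936, for Gabarap 4177, 4984 and 3986, for Atg12 984, 1646 and 1241, and for Atg5 949, 1032 and 812. Sqstm1 fell short of the matching counts by a difference of -2524, -3535 and -3506. Where these differences came from was not tested.

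Levels of different genes are compared per length, in RPKM. In control, Sqstm1 at 311.3 ± 25.2 RPKM and Gabarapl1 at 294.0 ± 34.8 RPKM (SD, n = 3 each) were the most abundant, and their ranges overlapped. Map1lc3a, Map1lc3b, Gabarap and Gabarapl2 followed between 161.3 and 122.0 RPKM, each overlapping its neighbour in the order. Atg12 at 34.9, Atg16l1 at 22.7, Atg5 at 14.3 and Atg7 at 6.70 RPKM came last, and none of these overlapped its neighbour. The genes of the membrane proteins and of the receptor thus stood above every conjugation gene in control, and the same held in taVNS. The order in taVNS again began with Sqstm1 at 300.6 ± 8.60 RPKM and Gabarapl1 at 282.6 ± 25.6 RPKM. In PSCI the order depended on the table. By the deposited RPKM, Map1lc3a at 264.1 ± 12.9 RPKM, Gabarap at 262.5 ± 24.4 RPKM and Gabarapl1 at 231.6 ± 14.6 RPKM came first with overlapping ranges, and Sqstm1 came after them at 186.5 ± 7.48 RPKM, overlapping Map1lc3b but not Gabarapl1. Converted to RPKM at each gene's median ratio over the taVNS and control libraries, the PSCI counts put Gabarap at 794 ± 77.6 and Map1lc3a at 774.9 ± 52.8 first, then Gabarapl2 at 455.6 ± 8.49 and Gabarapl1 at 232.1 ± 14.7. Sqstm1 came at 58.2 ± 14.6 by these converted counts, below Atg12 at 109.3 ± 14.2, and overlapped Atg5 at 61.7 ± 7.60. Atg5 stood above Atg16l1 in PSCI by both tables and below it in the other groups.

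In taVNS against control, 0 of the 10 genes were called by counts or by RPKM, and over all genes the share called was 0% in both. By edgeR, 557 of 14840 genes had an unadjusted p under 0.05, and Gabarapl2 was the only one of the 10 among them. DESeq2 called 10 genes, none of them among the 10 followed here, and put 591 at an unadjusted p under 0.05. By RPKM, 485 genes and none of the 10 had an unadjusted limma p under 0.05. The log2 differences of the 10 genes by counts ran from -0.27 ± 0.11 for Gabarapl2 to 0.04 ± 0.15 for Atg7, both with an edgeR adjusted p of 1.00. Map1lc3a, at 97.25 ± 3.59 CPM in taVNS and 114.3 ± 12.8 CPM in control, was the only one of the 10 whose groups did not overlap (log2 difference -0.23 ± 0.11). These p-values do not show that taVNS and control were alike.

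Promoters are shown for Gabarap and Atg5, 2 of the 4 genes that rose in PSCI by both tables, and for Sqstm1, which fell. They were read for the motifs of 2 factors, TFEB and NRF2, and whether either factor acted on these genes here was not tested. Of the 4, Gabarap and Atg5 are the ones in which a motif was found. TFEB, which drives autophagy and lysosome genes, binds the E-box CACGTG, and NRF2, which drives Sqstm1 in oxidative stress, binds the antioxidant response element, searched here by its core TGACNNNGC. Each sequence runs from 250 bases before to 50 bases after the RefSeq start of the gene in GRCr8, a newer assembly than that of the tables, and lies at chr10:55213215-55213514 (plus strand) for Gabarap, chr20:49380585-49380884 (plus strand) for Atg5 and chr10:35037701-35038000 (minus strand) for Sqstm1. Capitals mark a motif on either strand.
Gabarap: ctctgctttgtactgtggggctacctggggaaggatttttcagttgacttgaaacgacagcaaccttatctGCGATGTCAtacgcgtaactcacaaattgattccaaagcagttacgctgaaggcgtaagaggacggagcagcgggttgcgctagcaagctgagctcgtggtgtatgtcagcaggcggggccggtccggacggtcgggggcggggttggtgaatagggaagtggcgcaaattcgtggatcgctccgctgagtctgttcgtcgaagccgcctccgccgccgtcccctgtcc
Atg5: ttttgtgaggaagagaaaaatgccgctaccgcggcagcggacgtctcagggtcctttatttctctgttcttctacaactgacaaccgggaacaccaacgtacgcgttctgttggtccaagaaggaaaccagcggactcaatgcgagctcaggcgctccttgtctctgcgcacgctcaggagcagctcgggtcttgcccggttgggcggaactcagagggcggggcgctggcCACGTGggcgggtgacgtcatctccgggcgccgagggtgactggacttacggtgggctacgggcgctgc
Sqstm1: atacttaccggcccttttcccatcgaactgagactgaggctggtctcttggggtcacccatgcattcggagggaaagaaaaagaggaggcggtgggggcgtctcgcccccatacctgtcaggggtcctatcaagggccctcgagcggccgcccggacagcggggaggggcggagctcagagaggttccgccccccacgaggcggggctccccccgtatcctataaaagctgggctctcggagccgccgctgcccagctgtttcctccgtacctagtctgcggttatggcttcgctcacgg
The E-box stood 19 bases before the start of Atg5, and of the 9 genes with a RefSeq promoter only Atg5 had one, against 6.42% of all 33469 promoters. The antioxidant response core was found in 2 of the 9, Gabarap (179 bases before the start) and Map1lc3b (8 bases before the start), against 12.1% of all promoters. Map1lc3b was not called by either table. Of the other genes that rose by both tables, Atg12 had neither motif and Map1lc3a had no RefSeq promoter. Neither motif was found in this window of Sqstm1, which says only that these letters are absent from these bases.

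Other genes of the pathway were read from 6 lists, and most did not pass the test. For the counts below, the shares of all genes called by counts were 7.71% higher and 2.14% lower in PSCI against control, and 0.842% higher and 4.91% lower in taVNS against PSCI. Of 8 other conjugation genes, 1 rose and 1 fell in PSCI against control by counts. Atg16l2, a relative of Atg16l1, rose to 18.1 ± 8.12 CPM in PSCI, against 6.51 ± 1.67 CPM in control (log2 difference 1.48 ± 0.33, edgeR adjusted p = 0.0246). By RPKM this difference of Atg16l2 was 1.12 (limma adjusted p = 0.0121). Atg4c, a protease that prepares and releases LC3 proteins, fell to 50.0 ± 3.34 CPM in PSCI, against 66.4 ± 2.21 CPM in control (log2 difference -0.41 ± 0.09, edgeR adjusted p = 0.0257). Atg16l2 also fell in taVNS against PSCI (log2 difference -1.39 ± 0.33, edgeR adjusted p = 0.0431), and by RPKM the difference was -0.89 (limma adjusted p = 0.0437). In PSCI against control the call of Atg16l2 was lost in 5 of 16 alternatives and that of Atg4c in 8 of 17, and in taVNS against PSCI that of Atg16l2 was lost in 9 of 16. The median log2 difference of this list was 0.00 in PSCI against control and 0.01 in taVNS against PSCI.

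Of 20 other autophagy receptors and Sqstm1 partners, only Traf6, a ubiquitin ligase that binds SQSTM1, was called. It rose to 128.4 ± 5.62 CPM in PSCI, against 29.1 ± 1.42 CPM in control (log2 difference 2.14 ± 0.09, edgeR adjusted p = 1.24e-05), and by RPKM the difference was 1.58 (limma adjusted p = 0.00141). Of 22 initiation and nucleation genes, 21 were measured, of which 3 rose in PSCI and the same 3 fell in taVNS against PSCI: Becn1, a subunit of the lipid kinase complex that marks new autophagosomes, Ulk1, the kinase that starts autophagy, and Rb1cc1, a scaffold of the ULK1 complex. Becn1 had a log2 difference of 2.10 ± 0.10 by counts (edgeR adjusted p = 1.52e-05) and 1.204 by RPKM (limma adjusted p = 0.00023) in PSCI against control. All 3 and Traf6 were among the 33 genes past the limit between tables. Atg16l2 was not, but its mean ratio of counts to RPKM in PSCI differed by at least 0.25 (log2) from that of another group, which held for 106 genes in all. Becn1 lay at 586.9 ± 34.5 CPM in PSCI and 137.2 ± 8.97 CPM in control. Ulk1 lay at 289.8 ± 17.9 CPM in PSCI and 72.2 ± 6.07 CPM in control, and Rb1cc1 at 434.9 ± 21.1 CPM in PSCI and 110.6 ± 2.91 CPM in control. For Ulk1 the log2 difference of PSCI from control was 2.004 by counts and 1.196 by RPKM (limma adjusted p = 0.000288). For Rb1cc1 it was 1.975 by counts and 0.89 by RPKM (limma adjusted p = 0.00354). The list medians stayed near 0, at 0.00 for the receptors and 0.03 for initiation.

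The other 3 lists held none of these 106 genes. Of 13 lysosome fusion genes, 1 rose in PSCI, Vamp8, a SNARE protein of the fusion step (log2 difference 0.75 ± 0.20, edgeR adjusted p = 0.0478). Of 13 genes of the TFEB family and lysosome, 2 rose, the lysosomal proteases Ctsd (429.0 ± 117.9 CPM in PSCI, 223.9 ± 16.3 CPM in control, log2 difference 0.94 ± 0.18, edgeR adjusted p = 0.0147) and Ctsb (log2 difference 0.90 ± 0.20, edgeR adjusted p = 0.0232). Of 9 genes of NRF2 and its targets, 4 rose, among them Hmox1, the inducible haem oxygenase (26.3 ± 14.99 CPM in PSCI, 4.83 ± 1.26 CPM in control, log2 difference 2.44 ± 0.45, edgeR adjusted p = 0.0112), Nqo1, a quinone reductase (1.11 ± 0.24, adjusted p = 0.0207), and Nfe2l2, the gene of NRF2 (0.71 ± 0.16, adjusted p = 0.0257). In taVNS against PSCI, 0 fusion genes were called, Ctsd and Ctsb fell, and 3 NRF2 genes fell, among them Nqo1 by 1.37 and Hmox1 by 2.03 on the log2 scale (edgeR adjusted p = 0.015 for Nqo1 and 0.0312 for Hmox1). Many of these calls depended on the settings. In PSCI against control, the call of Vamp8 was lost in 12 of 17 alternatives, that of Nfe2l2 in 6, that of Ctsb in 5, and those of Ctsd, Hmox1 and Nqo1 in 2 each, without control replicate 2 and without control replicate 3. In taVNS against PSCI, the call of Ctsb was lost in 11 of 17, that of Hmox1 in 9, that of Ctsd in 8 and that of Nqo1 in 2. By RPKM, Ctsb and Hmox1 were not called in taVNS against PSCI (limma adjusted p = 0.069 for Ctsb and 0.0546 for Hmox1). In taVNS against control no gene of the 6 lists was called.

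For each of the 10 genes, the 3 genes with the most similar profile of log2 CPM over the 9 libraries were found by the root mean square of the difference between centred profiles, among 13448 genes. Atg5 was most like Casp9 (0.091), Rb1cc1 (0.092) and Becn1 (0.105), and its own profile had a root mean square of 0.99. Map1lc3a was most like Becn1, Traf6 and Bax (0.14 to 0.17), Gabarap like Bax, Becn1 and Tirap (0.12 to 0.15), and Gabarapl2 like Bad, Rb1cc1 and Becn1 (0.13 to 0.14). Of these, Casp9, Rb1cc1, Becn1, Traf6 and Bax were themselves among the 33 genes past the limit between tables, and Tirap and Bad were not. Atg12 was most like Cavin3, Ulk1 and Chaf1b (0.14 to 0.22). Ulk1 was also among the 33 genes and Cavin3 was not, while Chaf1b was not among the genes whose ratio was compared. No gene came as near to Sqstm1, for which Piezo2, Krt2 and Gzmm lay at 0.41 to 0.46. The genes that were not called had flatter profiles of their own (root mean square 0.12 to 0.20). Map1lc3b was most like Map7d1, Ift80 and Zfand6 (0.033 to 0.042), and Gabarapl1 like Stmn3, Timm10 and Dynll2 (0.055 to 0.061). Atg16l1 was most like Nsf, Ankmy2 and Rbak (0.039 to 0.040). Atg7 was most like Sdf4, Pop1 and Gstt2, but at 0.093 to 0.0945 these lay far off for a profile of 0.149. Sdf4 was among the 106 genes whose ratio of counts to RPKM differed.

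The libraries held 13747389 to 15415694 counts. Neuronal markers, at 6442 to 10830 summed CPM in PSCI and 10310 to 11520 in control with 0 of 10 called, were all detected. Some glial markers moved with the groups. Over all genes by counts, 7.71% rose in PSCI against control, and 4.91% fell and 0.842% rose in taVNS against PSCI. Of 11 microglia and macrophage markers, 9 rose in PSCI against control, and in taVNS against PSCI 6 fell and 1 rose. Their summed levels were 295.9 to 376.3 CPM in taVNS, 556.3 to 880.8 in PSCI and 200.8 to 277.8 in control. Astrocyte markers summed to 3477 to 4249 CPM in taVNS, 7464 to 10810 in PSCI and 3091 to 4359 in control. Of these 8 markers, 2 were higher in PSCI than in control, and 2 were lower in taVNS than in PSCI. No marker of either list was at 0 in all libraries. Of 7 oligodendrocyte markers, 0 were called in either comparison. They summed to 8747 to 13640 CPM in taVNS, 4929 to 13740 in PSCI and 9506 to 16690 in control. The part of glial markers in the differences of the 10 genes was not tested. Meningeal markers stood apart in PSCI replicate 2 (627 CPM) and taVNS replicate 3 (1091 CPM), against 111 to 197 CPM in the other 7 libraries. Without these 2 libraries, 6 of the 10 genes were called by counts in PSCI against control and 6 in taVNS against PSCI, and 4 and 4 by RPKM, with Gabarap the one lost in PSCI against control (limma adjusted p = 0.0709). Red cell markers were higher in taVNS, at 181.5 to 424.1 summed CPM, than in PSCI, at 36.5 to 108.0, with 3 of 4 called, and lay at 116.1 to 125.6 in control. The labels do not state that every library is a separate rat, beyond a protocol that takes tissue from each animal, so p-values measure the spread between these libraries.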

How the data were processed

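Hippocampal RNA was poly(A)-selected and made into libraries with dUTP in the second strand, per the labels' protocols; the strand setting of the counting is not given in the sources used here. The authors deposited for each of the 9 libraries a table of estimated counts (read numbers assigned by a model, not scaled) and a table of RPKM (per length and depth, with 2 decimals). HISAT2 2.0.4, RSEM 1.2.8 and the rat build mRatBN7.2 are named in the submitters' processing notes, without the role of each.

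Counts were rounded to whole numbers, filtered with filterByExpr, scaled by TMM (trimmed mean of M values) and compared by edgeR 4.0.16 (R 4.3.3), with its quasi-likelihood F test. The model held the group alone and took in all 9 libraries (6 residual degrees of freedom). RPKM were tested with limma 3.58.1 (with trend) on log2(RPKM + 0.1), among genes with a mean RPKM of at least 0.5. Such differences understate changes of low genes. Counts per RPKM were tested with limma on the log2 scale, each library centred on its median, among genes with at least 20 counts and an RPKM of at least 0.5 in every library. Calls were made where p, adjusted by Benjamini-Hochberg over all genes tested, was under 0.05. The steps were also run on simulated data with the same spread in every group, which does not show how well they perform on these libraries. All 10 genes passed every filter. Total counts of 13747389 to 15415694 set the counting error only. Replicates of a group differed far beyond it (chi-square per degree of freedom from 10.7 to 75.5), and each was counted as a separate sample.

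All 10 genes are named, and of the pathway lists the called genes with the 3 largest rises and falls, of which 1 is not reported here. The most similar genes were searched among those with at least 1 CPM. The 10 genes and all lists were chosen with earlier results of these data known, and so no list is independent evidence. Alternatives were other scaling, filters and pseudocounts, DESeq2 1.42.0, fits of 2 groups, the replicate number as a block, and leaving out each library. Identifiers of all 10 genes matched the RefSeq table of GRCr8, which gave names and promoters only.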

Additional observations from a re-analysis of the deposited data

How the results depend on the processing

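Over the 10 genes and the list genes called in either comparison, alternatives to a called value lost the call in 53 of 383 cases in PSCI against control and in 47 of 319 in taVNS against PSCI, and 0 reversed. Uncalled values gained a call in 2 and 8 cases, and taVNS against control had no call to lose. These alternatives stay within a table, and the 2 tables lay farther apart for Map1lc3a, Gabarap, Gabarapl2, Atg12, Atg5 and Sqstm1 than any of them moved a value in these 2 comparisons. By counts, Map1lc3a, Gabarap, Gabarapl2, Atg12, Atg5 and Sqstm1 were called under every alternative in PSCI against control and in taVNS against PSCI. How many of all genes were called depended more on the settings. For PSCI against control by counts (1461 genes), DESeq2 called 2257 and a fit of only these 2 groups 806. For taVNS against PSCI (854 genes), DESeq2 called 1550, the fit of 2 groups 250, and the fit without PSCI replicate 2 and taVNS replicate 3, chosen after seeing the data, 361. For taVNS against control (0 genes), DESeq2 called 10 and the fit without those 2 libraries 1. By RPKM, that fit called 801 genes in PSCI against control (1205 before), 229 in taVNS against PSCI (621 before) and 1 in taVNS against control, where leaving out the filter on low RPKM also gave 1.

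Leaving out 1 library at a time gave 548 (without control replicate 3) to 2255 (without PSCI replicate 1) genes by counts in PSCI against control, with 922 without control replicate 1, 635 without control replicate 2 and 785 without PSCI replicate 3. In taVNS against PSCI it gave 172 (without taVNS replicate 1) to 1707 (without PSCI replicate 1), with 488 without control replicate 2, 375 without PSCI replicate 3, 254 without taVNS replicate 2 and 313 without taVNS replicate 3. By RPKM the ranges were 457 (without control replicate 3) to 2070 (without PSCI replicate 1) and 117 (without taVNS replicate 1) to 1553 (without PSCI replicate 1), and in taVNS against control 0 to 1 by counts and 0 to 1 by RPKM. The ratio of counts to RPKM was called for 3 to 5 of the 10 genes in PSCI against control (3 without control replicate 3) and for 3 to 5 in taVNS against PSCI (3 when any taVNS library was left out). Atg12 and Sqstm1 were the genes lost at 3, although the tables of both differed in every PSCI library. The cause of these shifts was not tested.

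The replicate numbers did not pair the libraries: same-numbered libraries correlated from -0.468 to 0.255 in their deviations from the group means, and 6 of 18 comparisons had the best match at their own number. With the number as a replicate block, taVNS against PSCI had 518 genes by counts and 325 by RPKM, the ratio was called for 2 of the 10 genes in PSCI against control and 2 in taVNS against PSCI, and the RPKM call of Gabarap was lost. At this depth the lowest of the 10 genes still had 184 counts, and what more depth or more libraries would change was not tested.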
